A study of Mus musculus with 28 samples.

Results

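The comparison described here set splenic type 1 conventional dendritic cells (cDC1) against type 2 conventional dendritic cells (cDC2) within mice that carried an altered enhancer of Irf8. Its members were 8 of the 28 libraries of the series, chosen by their labels in the first of 2 experiments. They were 2 H/+ cDC1, 2 H/+ cDC2, 2 H/H cDC1 and 2 H/H cDC2 libraries. H/+ and H/H stand for C57BL/6 mice labelled Irf8 +32H/+ and Irf8 +32H/H, where +32 names an enhancer about 32 kb from Irf8. The 4 WT libraries of that experiment, 2 of cDC1 and 2 of cDC2, gave the lineage difference against which both altered genotypes were set. All cells were sorted from spleen, and the duplicates are labelled as biological. The series title calls the allele an optimization of the enhancer. The sequence change behind the letter H, the sorting gates and the age of the mice are not given in the sources used here. The question was which differences between cDC1 and cDC2 were held in the altered genotypes and which were smaller or larger there than in WT.

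IRF8 is the transcription factor on which cDC1 depend. Developing cDC1 hold Irf8 high through the +32 kb enhancer, at which BATF3 acts together with IRF8 itself. ZEB2 is a repressor that favours the cDC2 and plasmacytoid dendritic cell (pDC) fates, and ID2 is an inhibitor of E proteins needed for cDC1. cDC1 take up dead cells and cross-present their antigens to CD8 T cells. cDC2, many of which require IRF4 and Notch2 signalling in spleen, present antigen mainly to CD4 T cells.

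Each of the 8 libraries held between 26.08 M and 31.14 M assigned reads (M), and the 4 WT libraries between 27.86 M and 38.17 M. Levels are given as counts per 1e+06 assigned reads (CPM) after TMM scaling, with replicate 1 before replicate 2. Lineage differences are log2 fold changes of cDC1 over cDC2 with their standard errors (SE), tested over 16036 genes with edgeR's quasi-likelihood test at a Benjamini-Hochberg adjusted p under 0.05. Replicate 2 of every cDC group held Xist at 120.2 to 215 CPM, whereas replicate 1 of every group held at most 1 Xist count. The main fit had no term for this split, so it forms part of the spread between duplicates. Counts with such a term are given with the alternatives. Most listed markers of both lineages ran with the labels in every genotype: all 28 listed cDC1 markers were called higher in H/+ cDC1, in H/H cDC1 and in WT cDC1 than in cDC2 of the same genotype. Among 26 listed cDC2 markers, 22 in H/+, 23 in H/H and 22 in WT were called lower in cDC1. Of these 26 markers, 3 in H/+, 2 in H/H and 3 in WT were not called. Clec12a was called higher in cDC1 in all 3 genotypes, with 188 and 182 CPM in H/+ cDC1 and 48.6 and 41.3 in H/+ cDC2. In these bulk samples, fewer cells of a type and less RNA per cell cannot be told apart.

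The program that separates cDC1 from cDC2 stayed broad in both altered genotypes. In H/+ cells 6140 genes differed between the lineages, which was 38.3% of the genes tested, with 2938 higher in cDC1 (18.3%) and 3202 lower (20%). In H/H cells 5892 genes differed (36.7%), 2823 of them higher in cDC1 (17.6%) and 3069 lower (19.1%). WT cells had 7050 such genes (44%), 3291 higher in cDC1 (20.5%) and 3759 lower (23.4%). Counts of calls are not a measure of effect size, but the sizes ran in the same order: the median absolute log2 difference over all genes tested was 0.47 in H/+, 0.46 in H/H and 0.54 in WT. At least a 2-fold difference with a call was found for 1114 genes higher and 1925 lower in H/+ cDC1, for 985 higher and 1769 lower in H/H cDC1, and for 1256 higher and 2328 lower in WT cDC1. Among the genes called, 5276 had the same direction in H/+ and WT, which was 85.9% of the H/+ calls and 74.8% of the WT calls. For H/H and WT the number was 4997, 84.8% of the H/H calls and 70.9% of the WT calls. Calls of opposite direction numbered 3 for H/+ and WT and 14 for H/H and WT. A common direction in all 3 genotypes was found for 4506 genes, 2199 higher and 2307 lower in cDC1.

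Whether a lineage difference itself depended on genotype was tested as an interaction, the log2 difference of cDC1 over cDC2 in the altered genotype minus that in WT. In H/H minus WT 305 genes passed (1.9%), 224 with a more positive cDC1 over cDC2 value in H/H (1.4%) and 81 with a more negative one (0.505%). In H/+ minus WT 28 genes passed (0.175%), 25 positive (0.156%) and 3 negative (0.0187%). Without H/H cDC1 replicate 1, H/H cDC2 replicate 2 or WT cDC1 replicate 2 the H/H count was 203, 189 or 191, it was 476 with DESeq2, and without WT cDC1 replicate 2 the H/+ count was 13. The H/+ count also depended on the fit and was 8 when the spread was taken only from the libraries compared and 114 with DESeq2. A called gene is described below as narrowed when the interaction opposed the lineage difference and as widened when it added to it. The direction of the lineage difference was read from H/+ for the H/H interaction and from H/H for the H/+ interaction, so that it did not come from the libraries compared. A difference is described as kept when the interaction was not called and its 95% interval lay within a 2-fold change either way, and as unresolved when the interval was wider.

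By these terms 260 of the 6140 lineage differences were narrowed in H/H (4.23%), 16 were widened (0.261%), 3472 were kept within 2-fold (56.5%) and 2392 were unresolved (39%). Of the narrowed genes, 189 were higher in cDC2 and 71 were higher in cDC1. In H/+ 22 of 5892 differences were narrowed (0.373%), 3 were widened (0.0509%), 3616 were kept (61.4%) and 2251 were unresolved (38.2%). Narrowed did not mean lost: 223 of the 260 genes were still called between H/H cDC1 and H/H cDC2 in the original direction, and 37 were not called. Nor did kept mean called in H/H. Among kept differences in H/H, 338 of the 2046 higher in cDC1 and 292 of the 1426 higher in cDC2 were not called there. The H/+ lineage difference lay between those of H/H and WT for 258 of the 260 genes. Without H/H cDC2 replicate 2 or WT cDC1 replicate 2, 160 or 161 genes were narrowed in H/H, and without H/H cDC1 replicate 1 8 were widened. In H/+ 11 were narrowed and 1 was widened without WT cDC1 replicate 2, and 7 were widened without H/+ cDC1 replicate 1. The place of H/+ is in part fixed by the choice, since the 260 genes were picked for the gap between H/H and WT.

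**Figure D1:**
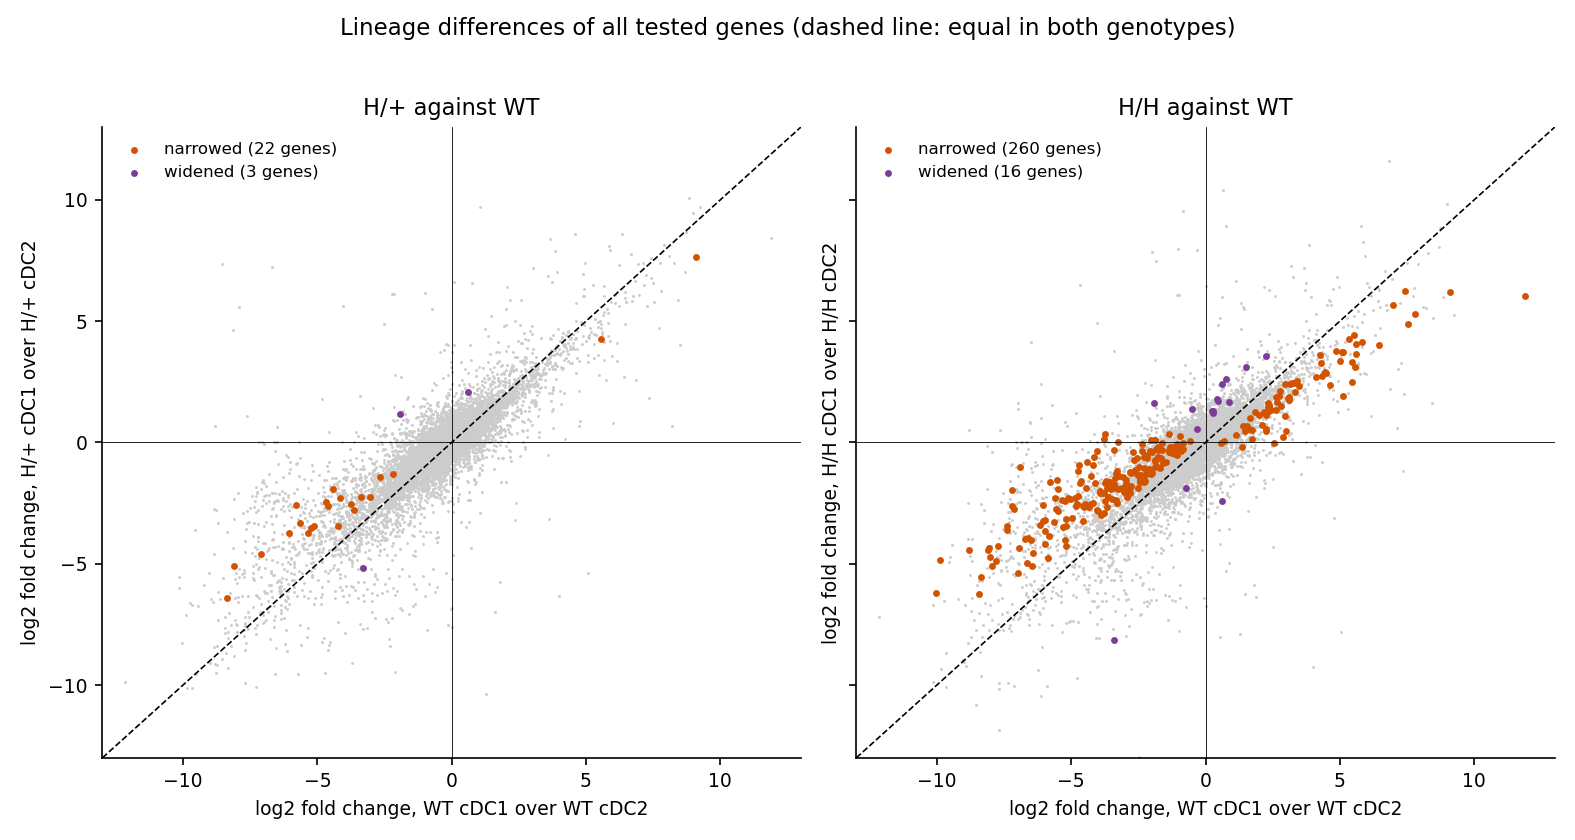
Each point is 1 of 16036 tested genes, with the log2 fold change of cDC1 over cDC2 in WT on the x axis and in H/+ (left) or H/H (right) on the y axis. The 22 narrowed genes in H/+ and 249 of the 260 in H/H lie between the dashed line of equality and the horizontal zero line, the other 11 in H/H have the opposite sign there, and the widened genes (3 and 16) lie beyond the dashed line or across zero.

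Irf8, the gene whose enhancer was altered, is given first (gene body at chr8:120736358-120756694, plus strand, GENCODE M21 on GRCm38). Its level was 1221 and 1091 CPM in H/+ cDC1 and 57.1 and 63.6 in H/+ cDC2, 837 and 831 in H/H cDC1 and 86.2 and 109.5 in H/H cDC2, and 2580 and 1960 in WT cDC1 and 48.9 and 47.9 in WT cDC2. The lineages did not overlap in any genotype, and the cDC1 values were ordered H/H, H/+, WT from low to high while the cDC2 values ran the other way. Irf8 was 19.1-fold higher in cDC1 in H/+, 8.53-fold in H/H and 46.9-fold in WT. The interaction, on the log2 scale with its SE, was -1.29 ± 0.18 in H/+ minus WT (edgeR adjusted p = 0.00614) and -2.46 ± 0.19 in H/H minus WT (edgeR adjusted p = 3.65e-06), a smaller gap in both. The gap was also smaller in H/H than in H/+, with a difference of -1.17 ± 0.18 (edgeR adjusted p = 0.0378), a call that ended when any of 6 of the 8 libraries was left out (edgeR adjusted p between 0.0593 and 0.183), and held without H/+ cDC1 replicate 2 or H/H cDC2 replicate 1. Both sides contributed in H/H. Irf8 fell in H/H cDC1 relative to WT cDC1 (log2 -1.44 ± 0.13, edgeR adjusted p = 9.2e-06) and rose in H/H cDC2 relative to WT cDC2 (log2 1.02 ± 0.13, edgeR adjusted p = 0.00345).

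Zeb2, which was higher in cDC2, was narrowed in H/H (gene body at chr2:44983632-45117395, minus strand, GENCODE M21 on GRCm38). Its level was 3.03 and 2.2 CPM in H/+ cDC1 and 84.6 and 75.5 in H/+ cDC2, 5.87 and 3.69 in H/H cDC1 and 82.3 and 72.6 in H/H cDC2, and 1.02 and 0.687 in WT cDC1 and 88.9 and 65.8 in WT cDC2. The cDC2 values of the 3 genotypes overlapped one another, whereas the cDC1 values did not overlap and were highest in H/H and lowest in WT. The lineage difference of Zeb2 was -4.94 ± 0.30 in H/+, -4.01 ± 0.28 in H/H and -6.51 ± 0.35 in WT. The interaction passed in H/H (2.50 ± 0.44, edgeR adjusted p = 0.0102) and not in H/+ (1.57 ± 0.46, interval 0.58 to 2.56, edgeR adjusted p = 0.396). Irf4, a factor of cDC2, had the same form, with 7.8 and 4.3 CPM in cDC1 of H/+, 11.6 and 8.2 in H/H cDC1 and 2.48 and 3.04 in WT cDC1. In cDC2 Irf4 had 132 and 94.1 CPM in H/+, 120.0 and 100.5 in H/H and 111 and 107 in WT. Its interaction was 1.82 ± 0.37 in H/H (edgeR adjusted p = 0.0255). The H/H call of Zeb2 ended without H/H cDC2 replicate 2 (edgeR adjusted p = 0.0518) or WT cDC1 replicate 2 (edgeR adjusted p = 0.104), and that of Irf4 held only without H/H cDC1 replicate 2, with an edgeR adjusted p of up to 0.143 without one of the others.

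Irf8, Zeb2 and Irf4 were the 3 narrowed genes among 28 listed dendritic cell transcription factors. Of the 28, 13 were kept in H/H, 5 were unresolved and 7 had no lineage call in H/+. Of all lineage differences 4.23% were narrowed, 56.5% kept and 39% unresolved. Among the kept factors were others that cDC1 require. Batf3 had 122 and 118 CPM in H/+ cDC1 and 67.4 and 65.3 in H/+ cDC2, 131 and 116 in H/H cDC1 and 72.1 and 70.3 in H/H cDC2, and 146 and 140.0 in WT cDC1 and 68.9 and 70.5 in WT cDC2. The lineages did not overlap, and the interaction of Batf3 in H/H was -0.24 ± 0.12 with an interval of -0.51 to 0.02. Id2 was 3.08-fold higher in cDC1 in H/+, 3.14-fold in H/H and 3.48-fold in WT, with an interaction of -0.15 ± 0.14 in H/H. Tcf4, the E protein of the pDC lineage, was lower in cDC1, with log2 differences of -1.84 in H/+, -1.75 in H/H and -2.08 in WT, and was kept. Nfil3, a factor of early cDC1 development, had 6.03 and 11.3 CPM in cDC1 of H/+, 6.57 and 7.93 in H/H cDC1 and 6.21 and 9.59 in WT cDC1, and its lineage difference was not called in any genotype. Zbtb46, a factor of all conventional dendritic cells, was lower in cDC1 in H/+ (-0.36 ± 0.11, edgeR adjusted p = 0.0128) and in H/H (-0.55 ± 0.11, edgeR adjusted p = 0.000833). The H/+ call of Zbtb46 ended without H/+ cDC1 replicate 2 (edgeR adjusted p = 0.0545) or H/+ cDC2 replicate 2 (edgeR adjusted p = 0.0954). In WT its lineage difference was -0.08 ± 0.10 and was not called. The H/H interaction of Zbtb46 was -0.47 ± 0.15 and did not pass (edgeR adjusted p = 0.166).

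**Figure D2:**
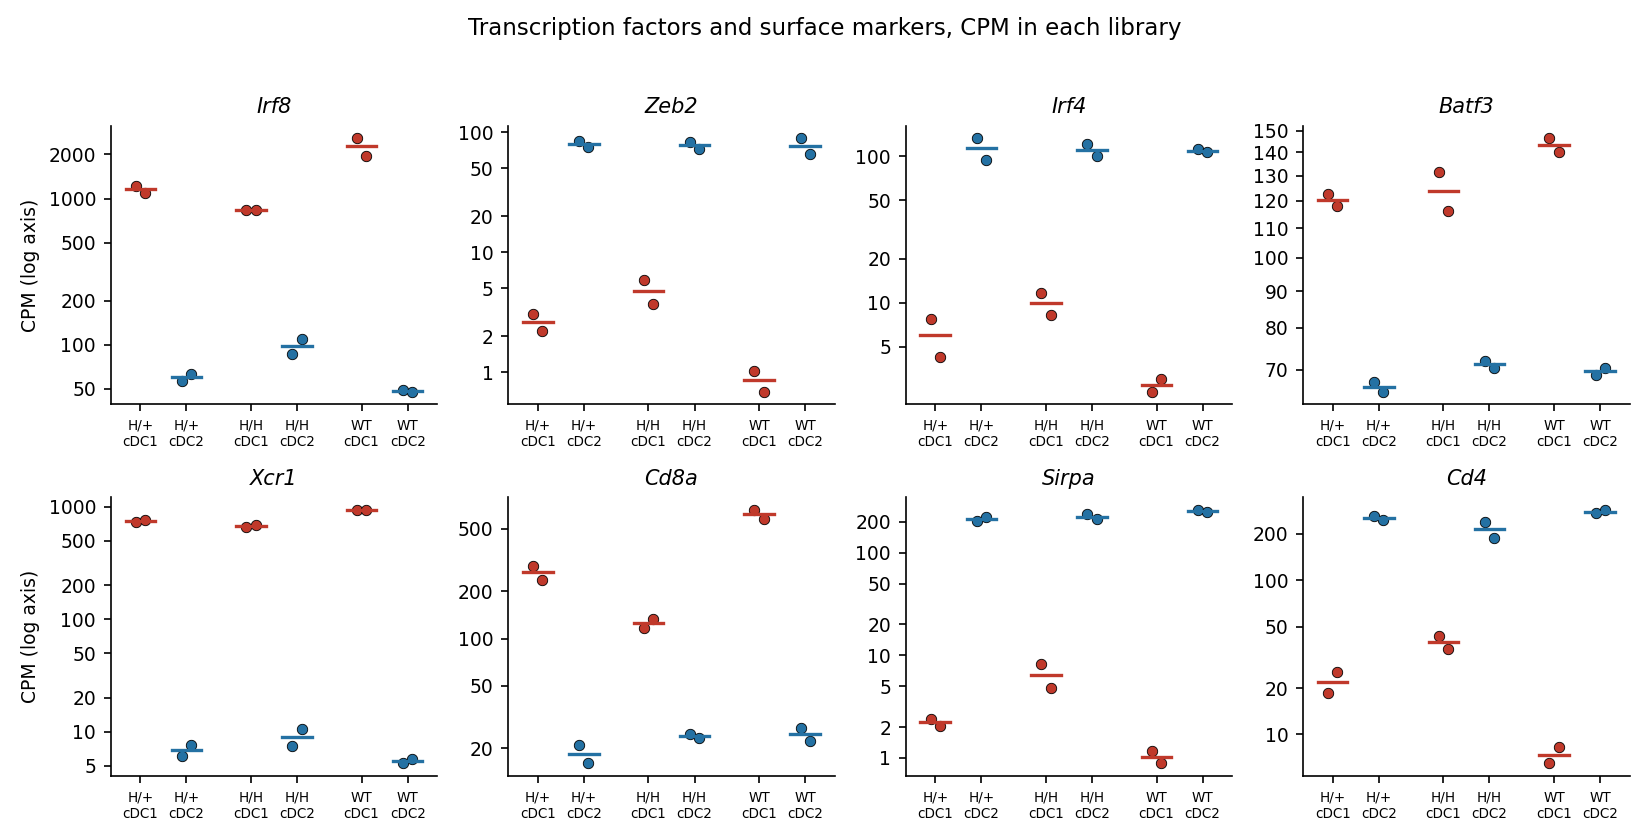
CPM on log axes in each library (points; bars are group means, n = 2) for 4 transcription factors and 4 surface markers in cDC1 (red) and cDC2 (blue) of H/+, H/H and WT mice. Irf8 in cDC1 is lowest in H/H (831 and 837 CPM), Zeb2, Irf4, Sirpa and Cd4 in cDC1 are highest in H/H, and the cDC1 points of Batf3 and Xcr1 stand above their cDC2 points in every genotype.

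Surface receptors by which the lineages are usually recognised remained far apart, and the gaps of Xcr1, Clec9a and Cd8a were smaller in H/H than in WT. Xcr1, the XCL1 receptor of cDC1, had 735 and 771 CPM in H/+ cDC1 and 6.12 and 7.66 in H/+ cDC2, 657 and 693 in H/H cDC1 and 7.47 and 10.5 in H/H cDC2, and 939 and 929.5 in WT cDC1 and 5.22 and 5.68 in WT cDC2. The lineages stood 109-fold apart in H/+, 74.9-fold in H/H and 171-fold in WT, and the H/H interaction was -1.19 ± 0.19 (edgeR adjusted p = 0.00323). Clec9a, the receptor for actin exposed by dead cells, had 197 and 218 CPM in H/+ cDC1 and 11 and 11.5 in H/+ cDC2, 181 and 178 in H/H cDC1 and 15.4 and 19.5 in H/H cDC2, and 197 and 227 in WT cDC1 and 7.19 and 6.09 in WT cDC2. In cDC1 the genotypes were close for Clec9a, and in cDC2 they did not overlap; its H/H interaction was -1.64 ± 0.17 (edgeR adjusted p = 6.86e-05). Cd8a, the splenic cDC1 surface chain, had 292 and 238 CPM in H/+ cDC1 and 21.1 and 16.1 in H/+ cDC2, 117 and 134 in H/H cDC1 and 24.6 and 23.5 in H/H cDC2, and 660.5 and 581 in WT cDC1 and 27 and 22.5 in WT cDC2. For Cd8a the change lay in cDC1, where the genotypes did not overlap, and the H/H interaction was -2.26 ± 0.20 (edgeR adjusted p = 1.43e-05). Itgae, which encodes CD103, stood 221-fold apart in H/+, 132-fold in H/H and 103-fold in WT, and its H/H interaction (0.36 ± 0.54, interval -0.82 to 1.54) left it unresolved.

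Among markers of cDC2, Sirpa, Cd4 and Itgam were narrowed in H/H. Sirpa, which encodes the CD47 receptor CD172a, had 2.38 and 2.07 CPM in H/+ cDC1 and 205 and 221 in H/+ cDC2, 8.17 and 4.81 in H/H cDC1 and 238 and 211 in H/H cDC2, and 1.18 and 0.884 in WT cDC1 and 261 and 251 in WT cDC2. The cDC1 values did not overlap between genotypes and remained far under every cDC2 value, 95.7-fold lower than cDC2 in H/+, 34.4-fold in H/H and 249.5-fold in WT. The H/H interaction of Sirpa was 2.86 ± 0.29 (edgeR adjusted p = 6.86e-05). Cd4 had 18.6 and 25.2 CPM in H/+ cDC1 and 263 and 245 in H/+ cDC2, 43.7 and 36 in H/H cDC1 and 239 and 189 in H/H cDC2, and 6.49 and 8.25 in WT cDC1 and 272 and 286 in WT cDC2. Its interaction passed in both altered genotypes, with 1.70 ± 0.22 in H/+ (edgeR adjusted p = 0.00352) and 2.81 ± 0.22 in H/H (edgeR adjusted p = 5.65e-06). Itgam, which encodes CD11b, had 2.49 and 2.44 CPM in cDC1 of H/+, 5.13 and 5.08 in H/H cDC1 and 0.472 and 1.24 in WT cDC1, with a H/H interaction of 2.76 ± 0.34 (edgeR adjusted p = 0.000494). Esam, a marker of the Notch2-dependent cDC2, was 6.32-fold higher in cDC2 in H/+, 4.59-fold in H/H and 8.21-fold in WT, and its H/H interaction did not pass (0.84 ± 0.23, edgeR adjusted p = 0.098).

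Over the whole marker lists, 15 of 28 cDC1 markers were narrowed in H/H (4.23% of all lineage differences), 5 were kept (56.5% of all) and 8 were unresolved, and none was widened. The median cDC1 over cDC2 log2 difference of this list was 4.41 in H/+, 3.72 in H/H and 5.32 in WT, beside medians over all genes tested of -0.03 in H/+, -0.04 in H/H and -0.07 in WT. Of 26 cDC2 markers, 10 were narrowed in H/H, 2 were kept, 11 were unresolved and 3 had no lineage call in H/+. Their median was -4.32 in H/+, -3.46 in H/H and -5.27 in WT. In H/+ the interaction passed for 2 cDC1 markers, Irf8 and Gpr141b, and for 4 cDC2 markers, Cd4, Cd209a, Cybb and Cd300a. Put as shares, the median cDC1 marker had in cDC2 4.71% of its cDC1 level in H/+, 7.57% in H/H and 2.54% in WT. The median cDC2 marker had in cDC1 5.02% of its cDC2 level in H/+, 9.02% in H/H and 2.58% in WT.

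In both narrowed sets the larger part of the change lay on the cDC1 side for most genes, 188 of the 189 higher in cDC2 and 52 of the 71 higher in cDC1. For the 189 genes higher in cDC2, the median interaction was 1.68, of which the median change from WT was 1.51 in cDC1 and -0.10 in cDC2. Of these 189 genes, 184 were called higher in H/H cDC1 than in WT cDC1, against 2.7% of all genes, and the other 5 were not called (1.47% of all genes were called lower and 4.17% in either direction). In cDC2 Tarm1 was the one gene of the 189 called, and it was lower (log2 -2.01). The median gene of this set reached 17.9% of its cDC2 level in H/+ cDC1, 31.5% in H/H cDC1 and 9.11% in WT cDC1. These cDC1 and cDC2 changes come from the libraries that gave the interaction and are a description of it.

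For the 71 narrowed genes higher in cDC1, the median interaction was -1.24, with a median change from WT of -0.73 in cDC1 and 0.29 in cDC2. Here 54 genes were called lower in H/H cDC1 (1.47% of all genes) and 10 were called higher in H/H cDC2. As in the other narrowed set, these changes come from the libraries that gave the interaction and are a description of it. Between H/H cDC2 and WT cDC2 13 genes were called over the whole table (0.0811%), 11 higher (0.0686%) and 2 lower (0.0125%), so the 10 narrowed genes were all but 1 of the genes called higher in H/H cDC2. They were Irf8, Clec9a, Cd36, Rab7b, Ifi205, Gpr141b, Ppt1, P2ry14, Itga8 and Serpinb8. The median gene of the 71 had in cDC2 19.1% of its cDC1 level in H/+, 26.4% in H/H and 11.9% in WT.

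**Figure D3:**
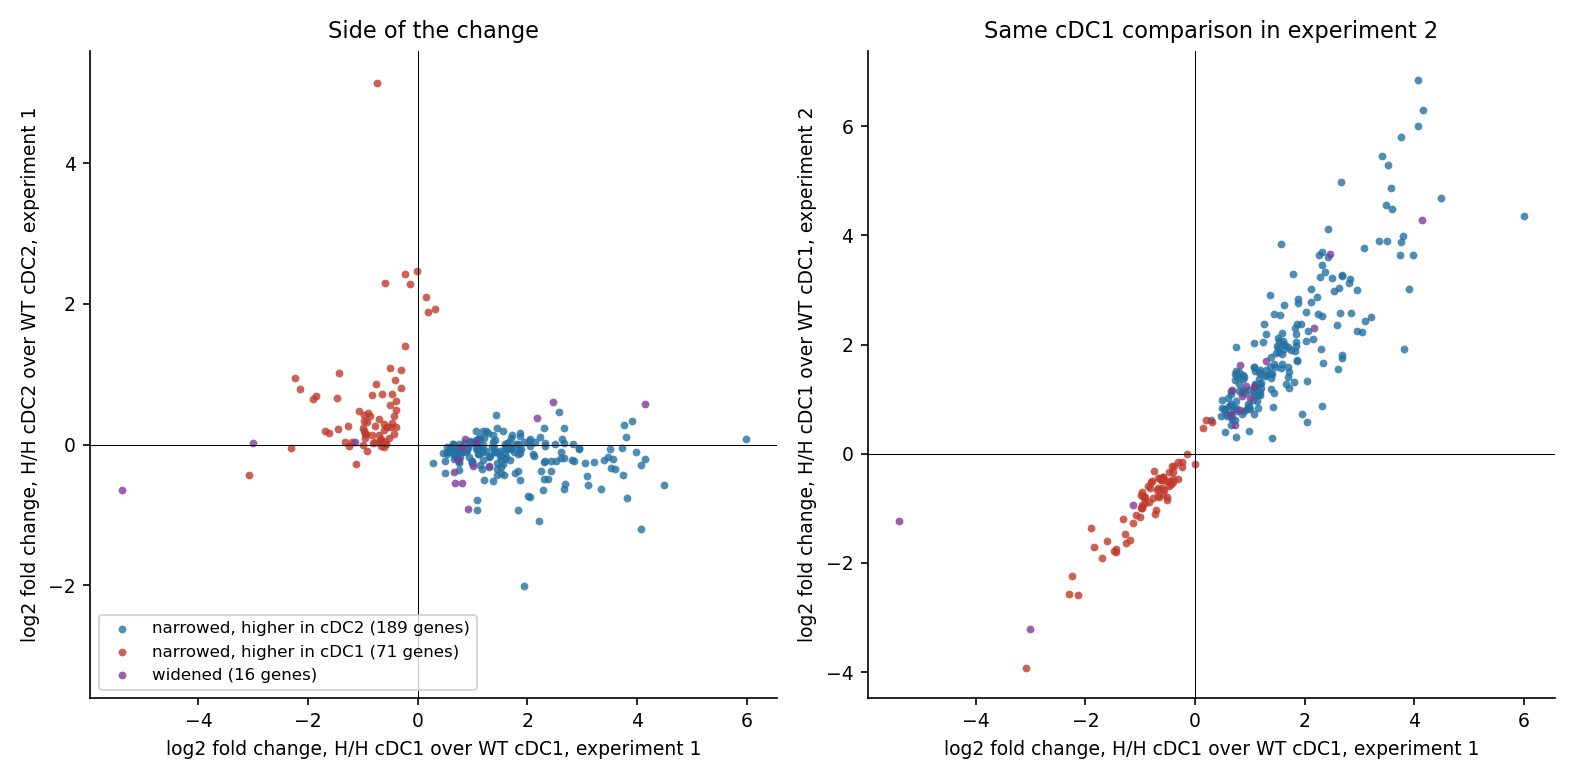
Left, log2 change from WT in H/H cDC1 (x axis) and in H/H cDC2 (y axis) for the 189 narrowed genes higher in cDC2, the 71 higher in cDC1 and the 16 widened genes. Right, the same cDC1 change in experiment 1 (x axis) and in experiment 2 (y axis); the 189 genes lie right of zero with a median of -0.10 in cDC2, where Tarm1 is lowest at -2.01, and all 189 are also above zero in experiment 2.

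A second experiment of the series held other H/H and WT cDC1 libraries, 2 of each, with no cDC2, and its libraries took no part in choosing these genes. There 916 of 14504 genes were called between H/H cDC1 and WT cDC1 (6.32%), 634 higher (4.37%) and 282 lower (1.94%). All 189 narrowed genes higher in cDC2 had a positive change in H/H cDC1 of that experiment, 170 of them were called higher, the rest were not called, and the median change was 1.64. Of the 71 narrowed genes higher in cDC1, 68 had a negative change there, 50 were called lower, and Serpinb8 and Itga8 were called higher. Irf8 had 576 and 647 CPM in H/H cDC1 and 2418 and 1864 CPM in WT cDC1 of experiment 2. Sirpa had 22 and 22.9 CPM in H/H cDC1 and 0.333 and 1.08 CPM in WT cDC1, and Zeb2 had 7.22 and 6.57 CPM in H/H cDC1 and 0.951 and 0.515 CPM in WT cDC1. The groups did not overlap for any of the 3 genes. Whether the cDC2 changes recur could not be examined in experiment 2.

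Among single genes, Cybb gave one of the strongest calls. It encodes the gp91phox subunit of the phagocyte NADPH oxidase (gene body at chrX:9435252-9487771, minus strand, GENCODE M21 on GRCm38). Its level was 15.9 and 23.2 CPM in H/+ cDC1 and 496 and 441 in H/+ cDC2, 62 and 69.8 in H/H cDC1 and 446 and 444 in H/H cDC2, and 4.21 and 3.24 in WT cDC1 and 534 and 494 in WT cDC2. The cDC1 groups did not overlap and were ordered WT, H/+, H/H from low to high, whereas the cDC2 groups lay within a narrow range. Cybb was 23.9-fold higher in cDC2 in H/+, 6.75-fold in H/H and 139-fold in WT, with an interaction of 2.53 ± 0.22 in H/+ (edgeR adjusted p = 0.000118) and 4.36 ± 0.22 in H/H (edgeR adjusted p = 6.62e-08).

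Cd209a, a C-type lectin of cDC2 related to human DC-SIGN, had 65.8 and 88.8 CPM in H/+ cDC1 and 414 and 501 in H/+ cDC2, 120.3 and 154 in H/H cDC1 and 414 and 428 in H/H cDC2, and 10.9 and 9.49 in WT cDC1 and 570.1 and 559.5 in WT cDC2. Its gap was 5.91-fold in H/+, 3.07-fold in H/H and 55.5-fold in WT, and the interaction was 3.23 ± 0.27 in H/+ (edgeR adjusted p = 0.000217) and 4.18 ± 0.28 in H/H (edgeR adjusted p = 3.65e-06). Fcer1g, the signalling chain shared by Fc receptors and several C-type lectins, had 47.2 and 47.3 CPM in cDC1 of H/+, 83.8 and 88.6 in H/H cDC1 and 32 and 28.4 in WT cDC1. Its cDC2 values were 525 and 489 CPM in H/+, 462 and 527 in H/H and 577 and 568 in WT. The cDC1 groups of Fcer1g did not overlap, and its interaction was 0.82 ± 0.13 in H/+ (edgeR adjusted p = 0.0131) and 1.73 ± 0.13 in H/H (edgeR adjusted p = 3.65e-06). Ms4a4c, a tetraspanning membrane protein, had 11.4 and 13.1 CPM in cDC1 of H/+, 30.1 and 40.4 in H/H cDC1 and 4.25 and 4.88 in WT cDC1, with a H/H interaction of 3.0 ± 0.19 (edgeR adjusted p = 1.11e-06). In cDC2 the 6 Ms4a4c values lay between 154 and 191 CPM. Other narrowed genes higher in cDC2 were Ms4a6b, Wfdc17, Sirpb1a, S100a4 and Csf3r, the receptor for granulocyte colony-stimulating factor, with H/H interactions between 1.91 and 3.85. Sirpb1a was not called without H/H cDC2 replicate 2 (edgeR adjusted p = 0.0543).

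On the cDC1 side of the program, Gpr141b, an orphan G protein-coupled receptor, had 370.1 and 344 CPM in H/+ cDC1 and 1.96 and 1.59 in H/+ cDC2, 325 and 256 in H/H cDC1 and 3.87 and 3.96 in H/H cDC2, and 455 and 421 in WT cDC1 and 0.581 and 0.97 in WT cDC2. The cDC2 groups did not overlap and were highest in H/H, and the interaction was -1.45 ± 0.27 in H/+ (edgeR adjusted p = 0.0456) and -2.88 ± 0.25 in H/H (edgeR adjusted p = 1.37e-05). Cd36, a scavenger receptor for lipids and dead cells, had 766 and 787 CPM in H/+ cDC1 and 31.4 and 39.1 in H/+ cDC2, 689 and 668 in H/H cDC1 and 41.7 and 66 in H/H cDC2, and 599 and 628 in WT cDC1 and 11.8 and 13.3 in WT cDC2. In cDC1 the change of Cd36 from WT was not called in H/H (0.15 ± 0.16, edgeR adjusted p = 0.754), and in cDC2 it was 2.10 ± 0.17 (edgeR adjusted p = 9.37e-05). Rab7b, a small GTPase of late endosomes, had 12.2 and 20.4 CPM in H/+ cDC2, 21.4 and 37.9 in H/H cDC2 and 4.97 and 6.07 in WT cDC2. Ifi205, an interferon-inducible PYHIN protein, had 10.0 and 14.8 CPM in H/+ cDC2, 16.3 and 36.7 in H/H cDC2 and 4.8 and 4.73 in WT cDC2. For both genes the altered cDC2 libraries lay above every WT cDC2 library. The H/H interaction of Ifi205 lost its call without 5 of the 8 libraries (edgeR adjusted p of up to 0.0846). In cDC1 Rab7b lay between 852 and 1077 CPM and Ifi205 between 879 and 1110 CPM over the 6 libraries. Gpr33, another receptor, was at 0 counts in both WT cDC2 libraries and had 0 and 0.069 CPM in H/+ cDC2 and 0.0667 and 0.226 in H/H cDC2, so its fitted interaction rests on very few reads and lost its call without 6 of the 8 libraries (edgeR adjusted p of up to 0.306).

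**Figure D4:**
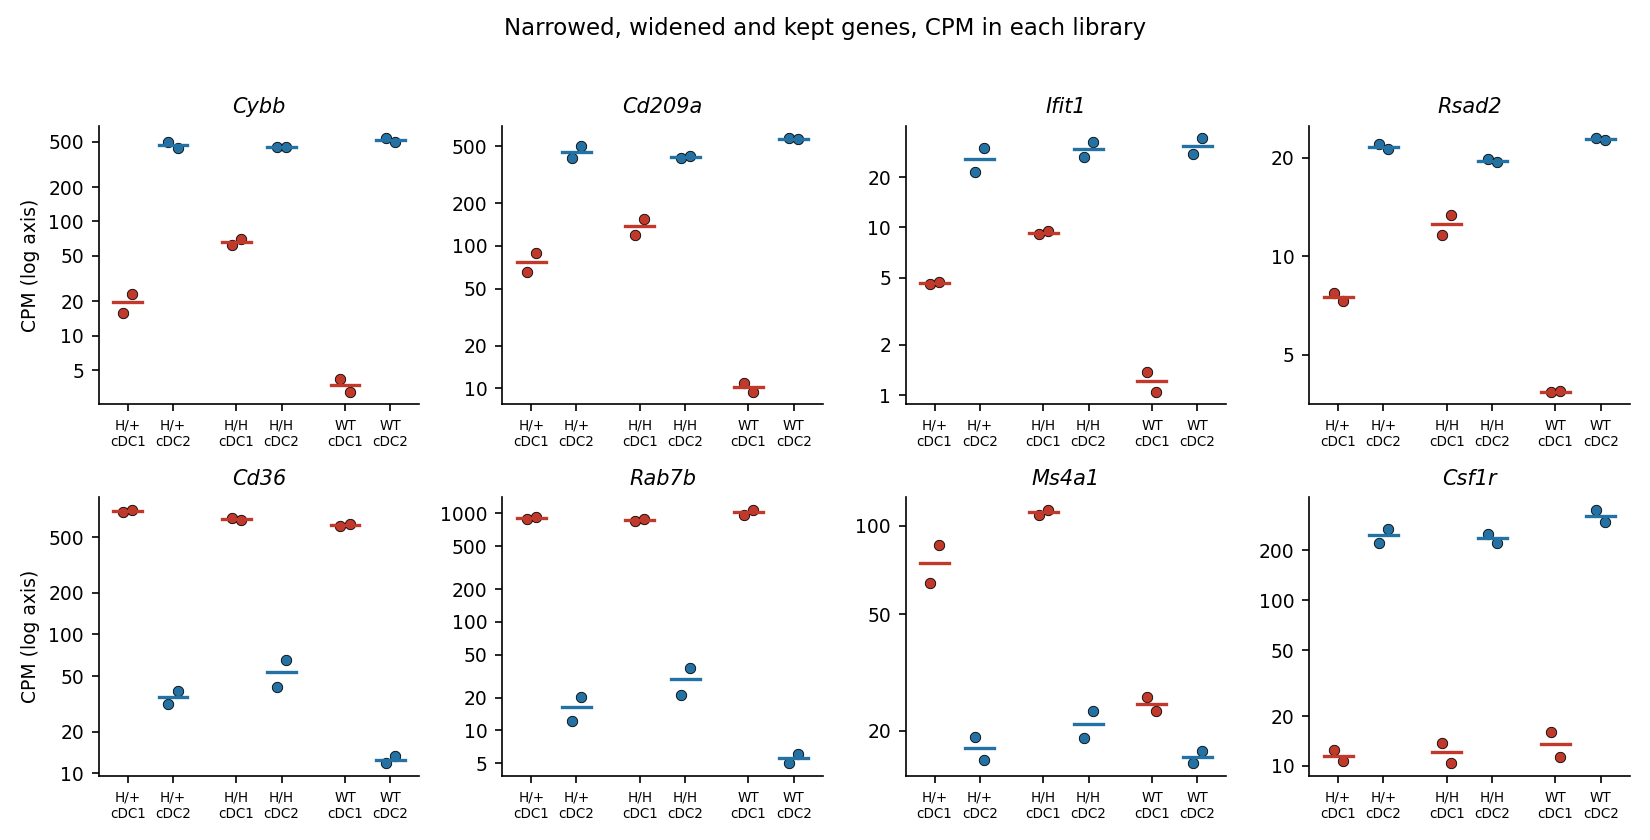
CPM on log axes in each library (points; bars are group means, n = 2) for 4 narrowed genes higher in cDC2 (Cybb, Cd209a, Ifit1, Rsad2), 2 narrowed genes higher in cDC1 (Cd36, Rab7b), 1 widened gene (Ms4a1) and 1 kept gene (Csf1r). The upper genes differ by genotype in cDC1 (red), Cd36 and Rab7b in cDC2 (blue), and Csf1r was kept.

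Among interferon-stimulated genes the balance of lineage direction differed by genotype. These genes are induced through STAT and IRF proteins and encode antiviral effectors and sensors. Of 26 tested, 5 were called higher and 14 lower in cDC1 of H/+ mice (median log2 -0.72). The H/H counts were 9 higher and 7 lower (median -0.25). WT had 2 higher and 18 lower (median -1.81). Background shares over all genes were 18.3% higher and 20% lower for H/+, 17.6% and 19.1% for H/H, 20.5% and 23.4% for WT. The interaction passed for 3 of the 26 in H/+ (0.175% of all genes) and for 13 in H/H (1.9%), all positive, with median interactions of 1.08 in H/+ and 1.94 in H/H beside 0.01 in each over all genes tested. By class, 11 were narrowed in H/H (4.23% of all lineage differences), 1 was widened, 3 were kept, 4 were unresolved and 7 had no lineage call in H/+. Ifit1, which binds foreign RNA caps, had 4.58 and 4.71 CPM in H/+ cDC1 and 21.3 and 29.9 in H/+ cDC2, 9.11 and 9.54 in H/H cDC1 and 26.5 and 32.2 in H/H cDC2, and 1.38 and 1.05 in WT cDC1 and 27.3 and 34.1 in WT cDC2. The cDC1 groups did not overlap, the cDC2 groups did, and the interaction was 2.21 ± 0.30 in H/+ (edgeR adjusted p = 0.00532) and 3.02 ± 0.30 in H/H (edgeR adjusted p = 3.64e-05). Oas1a, a sensor of double-stranded RNA, had 13.1 and 20.2 CPM in H/+ cDC1 and 47.9 and 80.6 in H/+ cDC2, 37.1 and 62.9 in H/H cDC1 and 54.9 and 71.2 in H/H cDC2, and 4.01 and 3.21 in WT cDC1 and 47.8 and 69.1 in WT cDC2. In H/H the lineages overlapped for Oas1a and the difference was not called (-0.33 ± 0.36, edgeR adjusted p = 0.514), while in WT it was -4.02 ± 0.43. Rsad2, which encodes viperin, had 7.69 and 7.28 CPM in cDC1 of H/+, 11.6 and 13.3 in H/H cDC1 and 3.85 and 3.86 in WT cDC1, and its 6 cDC2 values lay between 19.3 and 22.9 CPM. Ddx60, a helicase, had an interaction of 2.34 ± 0.36 in H/+ (edgeR adjusted p = 0.0108) and 3.48 ± 0.34 in H/H (edgeR adjusted p = 3.64e-05). Mx1 was higher in cDC1 by 1.33 in H/+, 1.33 in H/H and 1.38 in WT, and Mx1 was kept. The H/+ call of Ifit1 and the H/H call of Oas1a ended without WT cDC1 replicate 2 (edgeR adjusted p = 0.0659 for Ifit1 and 0.0621 for Oas1a). Ifit3 and Ifit3b are near-identical copies, so reads may be divided between them and their separate values are uncertain.

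The promoters of the narrowed genes are shown because the interferon-stimulated response element (ISRE) is a motif that IRF family proteins bind. The core searched was GAAA, any 2 bases (NN) and GAAA again, on both strands, which reads TTTC, NN and TTTC on the opposite strand, in RefSeq promoter windows of GRCm38.p6 from 250 bases before to 50 after each annotated start. Of 177 protein-coding narrowed genes higher in cDC2, 142 had a window, and 25 of these held the core (17.6%). Among kept genes higher in cDC2 it was 39 of 1121 (3.48%), among all protein-coding genes tested 407 of 10053 (4.05%), and among all windows 1131 of 32851 (3.44%). Without the listed interferon-stimulated genes it was 19 of 133 narrowed genes higher in cDC2 (14.3%). The list does not hold every interferon-inducible gene. Ddx58, Ifih1, Ifitm3, Ifi203, Gbp7, Slfn8 and Trim12a were still among the 19. Narrowed genes higher in cDC1 held the core in 4 of 59 windows (6.78%), kept genes higher in cDC1 in 62 of 1557 (3.98%), and widened genes in 4 of 15 (26.7%). The ETS-IRF composite core (GGAA, NN and GAAA, on both strands), which shares letters with the ISRE core, was in 7.04% of windows of narrowed genes higher in cDC2, in 3.84% of kept ones and in 2.95% of all protein-coding genes tested. Narrowed genes higher in cDC1 held it in 5 of 59 windows (8.47%), and kept genes higher in cDC1 in 2.18%. The E-box CAGGTG, a letter string that ZEB proteins bind, was in 23.2% of windows of narrowed genes higher in cDC2, in 21.5% of kept ones and in 20.6% of all protein-coding genes tested. For narrowed genes higher in cDC1 it was in 17 of 59 windows (28.8%), and for kept genes higher in cDC1 in 18.3%. Windows were found for 80.2% of the narrowed, 81.3% of the kept and 79.8% of all the protein-coding genes, and a match describes letters and is not evidence of binding. Stretches around the core are printed 5′ to 3′ on the strand of the gene, with the core in capitals, for 5 narrowed genes of the interferon list and for 2 outside it, Cybb and Sirpb1a.
Ifit1 (chr19:34640779-34640838, plus strand): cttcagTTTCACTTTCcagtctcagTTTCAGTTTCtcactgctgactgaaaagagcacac
Ifit3 (chr19:34583382-34583441, plus strand): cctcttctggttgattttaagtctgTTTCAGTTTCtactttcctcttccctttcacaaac
Oas1a (chr5:120907505-120907564, minus strand): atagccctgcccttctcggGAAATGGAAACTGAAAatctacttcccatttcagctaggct
Ddx60 (chr8:61928043-61928102, plus strand): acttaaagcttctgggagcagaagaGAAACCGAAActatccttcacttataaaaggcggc
Rsad2 (chr12:26456538-26456597, minus strand): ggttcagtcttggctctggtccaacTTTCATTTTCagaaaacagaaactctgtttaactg
Cybb (chrX:9469319-9469378, minus strand): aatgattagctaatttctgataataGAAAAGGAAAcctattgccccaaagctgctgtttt
Sirpb1a (chr3:15426620-15426677, minus strand): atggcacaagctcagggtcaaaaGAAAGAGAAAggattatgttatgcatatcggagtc
The RefSeq start of Cybb lies inside its GENCODE gene body. The Ifit1 stretch holds 2 separate cores and the Oas1a stretch 2 overlapping ones. Of the 13 listed interferon-stimulated genes called in the H/H interaction, 11 had a window and 7 of these held the core.

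Widened differences were few. Ms4a1, which encodes the B cell surface protein CD20, had 63.9 and 85.9 CPM in H/+ cDC1 and 19.1 and 15.9 in H/+ cDC2, 109 and 113 in H/H cDC1 and 18.8 and 23.3 in H/H cDC2, and 26 and 23.3 in WT cDC1 and 15.5 and 17 in WT cDC2. In cDC1 its 3 genotypes did not overlap, and its interaction was 1.5 ± 0.23 in H/+ (edgeR adjusted p = 0.0108) and 1.80 ± 0.23 in H/H (edgeR adjusted p = 0.00043). Of 11 tested B cell markers 3 passed the H/H interaction (1.9% of all genes), Ms4a1, Cd79b (0.90) and Cd22 (0.81), and the summed level of the list was 586 to 672 CPM in H/+ cDC1, 653.7 to 654 in H/H cDC1 and 507 to 579 in WT cDC1. Ifit1bl1, a relative of Ifit1, had 33.8 and 23.4 CPM in H/+ cDC1 and 9.35 and 15.8 in H/+ cDC2, 38.4 and 34.8 in H/H cDC1 and 12.2 and 11.3 in H/H cDC2, and 2.4 and 1.77 in WT cDC1 and 6.13 and 9.54 in WT cDC2. Its lineage order was turned round, with a difference of 1.19 ± 0.25 in H/+, 1.64 ± 0.25 in H/H and -1.93 ± 0.30 in WT, all called. Of the 16 widened genes, 13 were higher in cDC1, and all 13 were called higher in H/H cDC1 than in WT cDC1 in both experiments. Among them were Cd300e, Mt1, Apol10b, Ube2l6, Ifi207 and Ifi209, with interactions between 0.85 and 1.61. In WT 4 of the 16 had a lineage value of the opposite sign, of which Ifit1bl1 and Ifi209 (0.54 in H/H and -0.31 in WT) were called, and with the direction read from WT 8 genes were widened. On the cDC2 side Il12rb2, a chain of the interleukin-12 receptor, was lower in cDC1, with log2 differences of -1.44 in H/+, -1.90 in H/H and -0.72 in WT, with an interaction of -1.18 ± 0.19 in H/H (edgeR adjusted p = 0.00343). Leaving out single libraries ended the H/+ calls of Ms4a1 and Ifit1bl1 without WT cDC1 replicate 2 (edgeR adjusted p = 0.0853 for Ms4a1 and 0.0754 for Ifit1bl1). That of Ms4a1 also ended without H/+ cDC2 replicate 2 or WT cDC2 replicate 2 (edgeR adjusted p = 0.0508 or 0.0548). The H/H calls of Cd79b, Cd22, Apol10b and Mt1 ended without 6, 5, 5 and 1 of the 8 libraries, with edgeR adjusted p of up to 0.127. Rab37 was widened in H/+ (-1.87 ± 0.32, edgeR adjusted p = 0.0296; up to 0.12 when 1 library was left out) and was unresolved in H/H.

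The kept differences included large ones. Cd7, an immunoglobulin superfamily protein, had 9.46 and 8.54 CPM in H/+ cDC1 and 460.4 and 528 in H/+ cDC2, 14.3 and 13.3 in H/H cDC1 and 505 and 504 in H/H cDC2, and 13.1 and 8.87 in WT cDC1 and 502 and 498 in WT cDC2. Its cDC1 values were highest in H/H and overlapped between H/+ and WT, and the H/H interaction was 0.33 ± 0.20 with an interval of -0.10 to 0.75. Csf1r, the receptor for macrophage colony-stimulating factor, had 12.4 and 10.6 CPM in H/+ cDC1 and 222 and 271 in H/+ cDC2, 13.8 and 10.3 in H/H cDC1 and 253 and 223 in H/H cDC2, and 16 and 11.3 in WT cDC1 and 351 and 296 in WT cDC2. The lineages were 21.4-fold apart in H/+, 19.7-fold in H/H and 23.8-fold in WT, with an interaction interval of -0.30 to 0.84 in H/H. Snx22, a sorting nexin, had 364 and 358 CPM in H/+ cDC1 and 15 and 17.4 in H/+ cDC2, 447 and 431 in H/H cDC1 and 17 and 18.4 in H/H cDC2, and 328 and 250.2 in WT cDC1 and 12 and 13 in WT cDC2. It was higher in cDC1 by 4.48 in H/+, 4.63 in H/H and 4.53 in WT on the log2 scale, and its H/H interaction was 0.10 ± 0.19. Slc2a3, the glucose transporter GLUT3, and Cyp4f16, a cytochrome P450, were kept on the cDC2 side at -4.91 and -4.24 in H/H, and Laptm4b, a lysosomal membrane protein, was kept on the cDC1 side at 4.78. Most kept differences were smaller: the median H/H value was 0.55 for the 2046 kept genes higher in cDC1 and -0.60 for the 1426 higher in cDC2. Both medians are smaller than the 2-fold limit of the interval, so a small difference could be lost and still be classed as kept.

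Most tested genes of MHC class I presentation were classed as kept. They encode the machinery that loads peptides for CD8 T cells. Of 18 tested, 13 were higher in H/+ cDC1, 13 in H/H cDC1 and 13 in WT cDC1, with log2 medians of 0.88 in H/+, 0.87 in H/H and 0.85 in WT. Over all genes tested, 18.3% were called higher in H/+ cDC1, 17.6% in H/H cDC1 and 20.5% in WT cDC1. No interaction passed with edgeR in H/+ (1 at an unadjusted p under 0.05, 0 with DESeq2) or in H/H (4 at an unadjusted p under 0.05, 1 with DESeq2). By class, 14 were kept in H/H, beside 56.5% of all lineage differences, and 4 had no lineage call in H/+. The list medians are smaller than a 2-fold difference, so this class does not exclude a smaller gap. The H/H interaction was negative for 14 of the 18 genes, with a median of -0.18 beside 0.01 over all genes tested. Pdia3, the ERp57 disulfide isomerase of the loading complex, had 1362 and 1445 CPM in H/+ cDC1 and 365 and 447 in H/+ cDC2, 1145 and 1130 in H/H cDC1 and 456 and 411 in H/H cDC2, and 1513 and 1537 in WT cDC1 and 397 and 488 in WT cDC2. The lineages did not overlap for Pdia3 in any genotype. Tap1, the peptide transporter subunit, was higher in cDC1 by 1.10 in H/+, 0.93 in H/H and 1.15 in WT. Wdfy4, needed for cross-presentation, was higher in cDC1 by 1.19 in H/+, 1.03 in H/H and 1.44 in WT. Among 14 MHC class II genes, 6 were kept in H/H, and H2-DMb2, a chain of the peptide editor DM, was narrowed. It had 292 and 279 CPM in H/+ cDC1 and 1131 and 1137 in H/+ cDC2, 368 and 352 in H/H cDC1 and 1118 and 1086 in H/H cDC2, with an interaction of 0.84 ± 0.12 (edgeR adjusted p = 0.00102). The class II structural genes H2-Aa, H2-Ab1 and H2-Eb1 had no lineage call in H/+ or H/H.

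Pattern recognition receptors divided between the classes. Of 25 tested, 6 were narrowed in H/H and 6 were kept (4.23% and 56.5% of all lineage differences), 9 were unresolved and 4 had no lineage call in H/+. Narrowed were Tlr1 (1.91), Ddx58, which encodes the RNA sensor RIG-I (2.65), Ifih1, which encodes MDA5 (1.12), and Clec7a, which encodes the glucan receptor Dectin-1 (1.86) on the cDC2 side, and Clec9a and Tlr12 (-1.40) on the cDC1 side. Tlr7, the endosomal receptor for single-stranded RNA, had 0.289 and 0.271 CPM in H/+ cDC1 and 41.9 and 41.2 in H/+ cDC2, and 0.349 and 0.269 in H/H cDC1 and 45.8 and 37.2 in H/H cDC2. Its lineages stayed far apart, and the interaction (1.41 ± 0.48, interval 0.39 to 2.42) was unresolved. Tlr11, a profilin receptor of cDC1, was kept at 3.79 in H/+, 3.26 in H/H and 3.69 in WT, and Tlr3, the receptor for double-stranded RNA, was unresolved at 5.33 in H/+, 4.96 in H/H and 5.83 in WT.

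**Figure D5:**
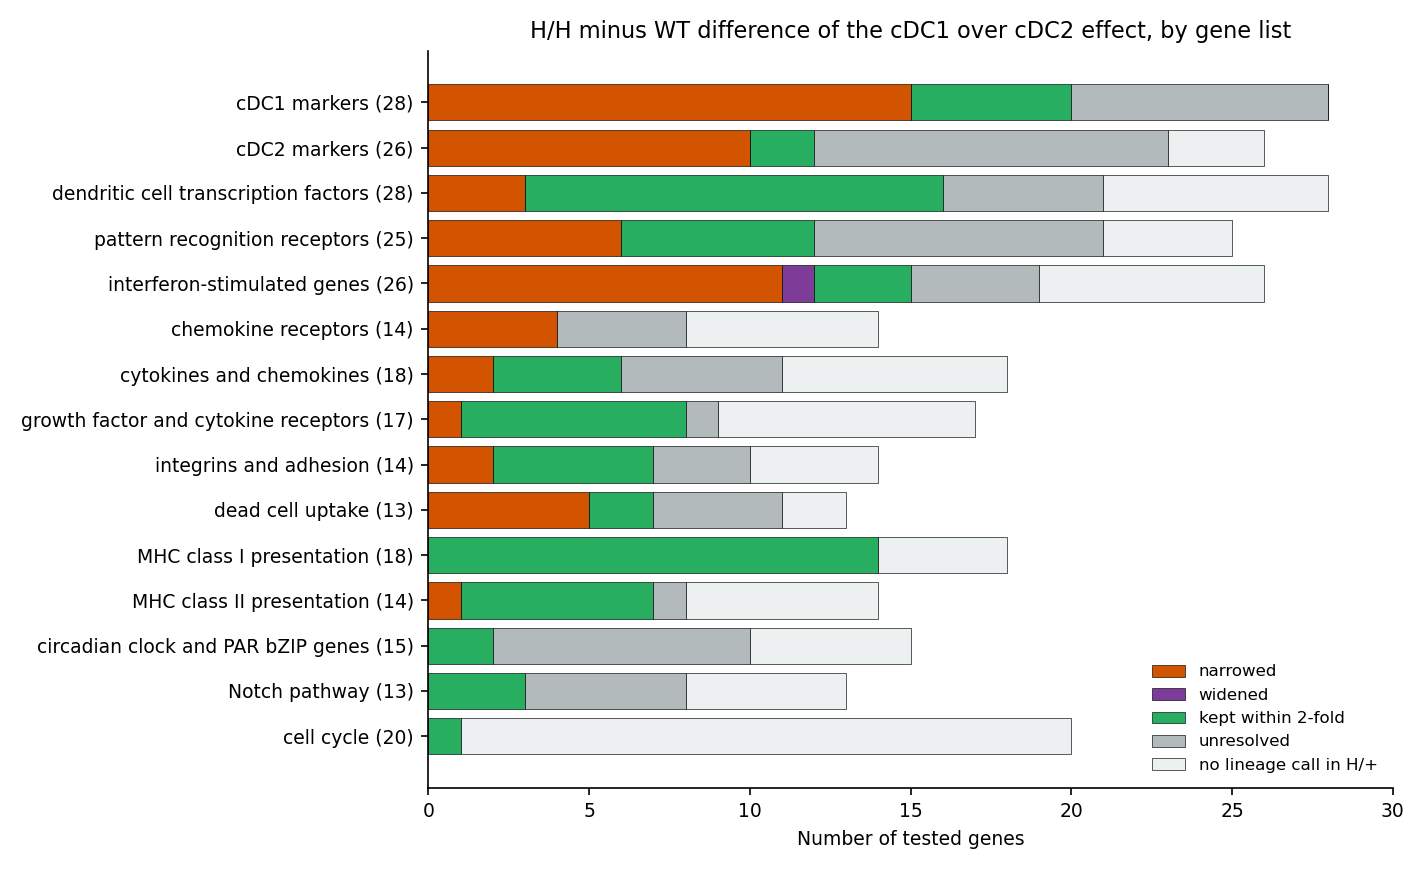
Number of tested genes of each list (x axis) by the class of their H/H minus WT interaction; the number tested stands in parentheses. Narrowed genes make up 15 of 28 cDC1 markers, 10 of 26 cDC2 markers and 11 of 26 interferon-stimulated genes, and 0 of 18 MHC class I genes.

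In the chemokine receptor list, 3 genes were called narrowed on the cDC1 side. On the cDC2 side only Gpr183 was, which is listed here though its ligand is an oxysterol. Gpr183, the oxysterol receptor that positions cDC2 in spleen, had 63.3 and 49.1 CPM in H/+ cDC1 and 427 and 353 in H/+ cDC2, 125 and 118 in H/H cDC1 and 402 and 320.0 in H/H cDC2, and 27.9 and 26.8 in WT cDC1 and 370.1 and 337 in WT cDC2. The cDC1 groups did not overlap, and the interaction was 2.12 ± 0.19 in H/H (edgeR adjusted p = 1.52e-05). With Xcr1, Ccr9 (-1.24) and Cxcr3 (-1.07) on the cDC1 side, 4 of 14 were narrowed, none was kept, 4 were unresolved and 6 had no lineage call in H/+. Beside these and the next 2 lists, 4.23% of all lineage differences were narrowed and 56.5% were kept. Among 18 tested cytokines and chemokines 2 were narrowed, Ccl9 (2.32 in H/+ and 2.37 in H/H) and Ccl3 (1.34 in H/H). Il15, Il1b, Cxcl16 and Ccl4 were kept, and Il12b, the p40 subunit, was unresolved, with lineage differences of 1.54 in H/+, 0.75 in H/H (not called) and 2.05 in WT. Of 13 genes of dead cell uptake, 5 were narrowed: Clec9a and Cd36 on the cDC1 side, and Tgm2, a transglutaminase, Lrp1, an endocytic receptor, and Cd300lf on the cDC2 side. Havcr2, which encodes TIM-3, and Mfge8, a bridging protein, were kept. The H/H calls of Ccr9, Lrp1 and Ccl3 each ended without 7 of the 8 libraries and that of Cxcr3 without 5, with edgeR adjusted p of up to 0.167.

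Of 17 tested receptors for growth factors and cytokines, 7 were kept in H/H (56.5% of all lineage differences), Csf3r was narrowed (3.68), 1 was unresolved and 8 had no lineage call in H/+. Flt3, the receptor that sustains dendritic cells, differed between the lineages by 0.36 ± 0.17 in H/+ and 0.07 ± 0.17 in H/H and was called in neither. Among 14 integrins and adhesion genes, Itgam and Cadm1 (-1.37; edgeR adjusted p = 0.0508 without H/H cDC2 replicate 1) were narrowed and 5 were kept. Clock genes and related transcription factors were called lower in cDC1 or not called. Of 15 tested, 10 were lower in H/+ (median -1.14), 10 in H/H (median -0.99) and 12 in WT (median -1.42). Of all genes 20% were called lower in H/+, 19.1% in H/H and 23.4% in WT. In H/H 2 of the 15 were kept and 8 were unresolved, beside 56.5% and 39% of all lineage differences. No clock gene passed an interaction with edgeR in H/+ or H/H (0 at an unadjusted p under 0.05 and 0 with DESeq2 in both). Nr1d1, the repressor REV-ERB alpha, was lower in cDC1, with log2 differences of -2.32 in H/+, -2.38 in H/H and -2.60 in WT. No interaction passed with edgeR among 13 Notch pathway genes, with 0 in H/+ and 2 in H/H at an unadjusted p under 0.05 and 0 with DESeq2 in both. Of these Dtx1, a Notch target, had 0.108 and 0.305 CPM in H/+ cDC1 and 124 and 147 in H/+ cDC2, and 0.14 and 0.192 in H/H cDC1 and 133 and 131 in H/H cDC2. Of 20 cell cycle genes, Cdk1 was called between the lineages in H/+ (not without H/+ cDC1 replicate 2 or either H/+ cDC2 library, edgeR adjusted p of up to 0.361) and 6 genes were called in WT. In H/H none was called with edgeR, 3 had an unadjusted p under 0.05 and 1 was called with DESeq2. Over all genes edgeR called 38.3% in H/+, 36.7% in H/H and 44% in WT.

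H/H and H/+ could be set against each other without WT. The difference between their lineage effects passed for 10 genes (0.0624%), 6 positive (0.0374%) and 4 negative (0.0249%), and 682 genes had an unadjusted p under 0.05. The negative ones were Irf8, Cd8a (-1.45 ± 0.20, edgeR adjusted p = 0.0152), Gpr141b (-1.44 ± 0.23, edgeR adjusted p = 0.0406) and Dbn1 (-1.41 ± 0.24, edgeR adjusted p = 0.0406), which encodes the actin-binding protein drebrin. The positive ones were Cybb (1.82 ± 0.20, edgeR adjusted p = 0.00325), Ms4a4c, Fcer1g, Tgm2, Gpr183 and Pram1. Cybb had the smallest p of the 10. Pram1 rested on few reads, with 1.05 and 0.885 CPM in H/H cDC1 and 0.0722 and 0 CPM in H/+ cDC1. This small count depends on the fit: it was 0 with edgeR when the spread was taken only from the 8 libraries compared (546 genes at an unadjusted p under 0.05) and 53 with DESeq2. Leaving out 1 library in turn gave between 2 and 19 genes, the fewest without H/H cDC1 replicate 1 and the most without H/+ cDC1 replicate 2. It was 6 or 4 without H/+ cDC2 replicate 1 or 2, 5 when H/H cDC1 replicate 2 was left out and 4 when H/H cDC2 replicate 2 was. The call of Cd8a ended without H/+ cDC2 replicate 2 (edgeR adjusted p = 0.0504) or H/H cDC1 replicate 1 (edgeR adjusted p = 0.127).

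Some of the largest lineage differences of genes at 10 CPM or more were close to absence in the lower lineage of H/+ and H/H. Gcsam, a germinal centre signalling protein also expressed by cDC1, had 326 and 361 CPM in H/+ cDC1 and 0.447 and 0.517 in H/+ cDC2, and 259 and 250.3 in H/H cDC1 and 0.267 and 0.29 in H/H cDC2. Clec4a4, which encodes the cDC2 lectin DCIR2, had 0.0722 and 0.136 CPM in H/+ cDC1 and 124 and 122 in H/+ cDC2, and 0.175 and 0.192 in H/H cDC1 and 119.7 and 122 in H/H cDC2. The level of the lower lineage in H/H was thus 0.109% of the higher for Gcsam and 0.152% for Clec4a4. The H/H median was 26.4% for the 71 narrowed genes higher in cDC1 and 31.5% for the 189 higher in cDC2. Pram1, among the largest differences in H/+, was narrowed in H/H, with 0.0722 and 0 CPM in H/+ cDC1 and 20.1 and 24.3 in H/+ cDC2, and 1.05 and 0.885 in H/H cDC1 and 23 and 19.6 in H/H cDC2. Ryr3, a calcium channel, had 0.0698 and 0.077 CPM in H/H cDC1 and 76.7 and 91.7 in H/H cDC2. Genes at 10 CPM or more in cDC2 of every genotype and under 1% of that in cDC1 numbered 29 in H/+, 20 in H/H and 47 in WT, of 7209. In the other direction, genes under 1% in cDC2 numbered 11 in H/+, 10 in H/H and 16 in WT, of 6953.

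Markers of other cell types are given as sums over each list. Summed monocyte and macrophage markers (16 genes) gave 854 to 885 CPM in H/+ cDC1 and 1909 to 2278 in H/+ cDC2, 811 to 873 in H/H cDC1 and 1789 to 2012 in H/H cDC2, and 964 to 1040 in WT cDC1 and 2248 to 2534 in WT cDC2. Adgre1, which encodes F4/80, was the gene of that list called in the H/H interaction (1.87). Summed pDC markers gave 113 to 121 CPM in H/+ cDC1, 121 to 144 in H/H cDC1 and 119 to 130.2 in WT cDC1. Of 10 tested pDC markers, Runx2 and Ccr9 passed the H/H interaction (1.9% of all genes), with Runx2 at 11.6 and 11.3 CPM in cDC1 of H/+, 15.1 and 18.6 in H/H cDC1 and 4.72 and 4.58 in WT cDC1. T cell markers summed to at most 58.8 CPM and the 12 neutrophil markers to at most 7.54 CPM in any cDC library. NK cell markers summed to 171 to 172 CPM in H/+ cDC1, 206 to 264 in H/H cDC1 and 161 to 173 in WT cDC1, and Klrd1 was the NK marker called in the H/H interaction (1.75). The part of other cells in the narrowed differences was not tested, and neither was the part of cells sorted into the other lineage. For the last point the whole marker lists are given. Of 26 cDC2 markers, 4 stood in H/H cDC1 under 1% of their H/H cDC2 level, against 9 in WT. Under 5% stood 7 in H/H and 19 in WT, and the median was 9.02% in H/H and 2.58% in WT. Of 28 cDC1 markers, 4 stood in H/H cDC2 under 1% of their H/H cDC1 level, against 7 in WT. Here 13 stood under 5% in H/H and 19 in WT, with medians of 7.57% and 2.54%.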

How the data were processed

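Total RNA of sorted cells was made into SMARTer libraries and sequenced. The deposited tables give per-gene estimated counts by Ensembl gene ID, from a pipeline whose tools include bcl2fastq, DRAGEN and edgeR, per the submitters' processing notes; versions and genome build are not given in the sources used here. Of the deposited estimated counts, 10.8% (experiment 1) and 10.2% (experiment 2) had decimals, and all were rounded. After 287 repeated IDs were removed, 55487 genes remained. A single edgeR 4.0.16 fit (R 4.3.3, limma 3.58.1) covered all 16 libraries of experiment 1, including 4 of hybrid cells that only shared the estimate of spread, with filterByExpr, TMM scaling, a coefficient per group and robust quasi-likelihood dispersion (8 residual degrees of freedom). Experiment 2 (12 libraries) was fitted alone. No strand setting is given, so overlapping genes may share reads. Genes, members and lists were chosen with earlier results of these data known. Named genes were fixed genes (such as Irf8 and Xcr1), the 8 largest lineage differences per direction at 10 CPM or more, the 10 narrowed and 10 widened genes of smallest p per interaction, the 10 kept genes of largest lineage difference and up to 4 largest called changes per list; genes named beside a count were added after their values were seen. Some named results are not reported here. The fit was tested on simulated data. Alternatives were DESeq2 1.42.0, its size factors, no filter, other sets of libraries, a replicate block and leaving out each library. P-values measure the spread between duplicates, n = 2 per group.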

Additional observations from a re-analysis of the deposited data

Results flagged for a closer look

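These results were picked out because a test of the difference between genotypes passed: the log2 cDC1 over cDC2 difference in 1 genotype minus that in another, with edgeR at an adjusted p under 0.05. Groups of 2 libraries are too small for a test of outlying libraries. The interaction passed for 305 genes in H/H minus WT, for 28 in H/+ minus WT and for 10 in H/H minus H/+.

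In H/H minus WT the negative log2 differences among the named genes were Gpr33 -5.88, Ace -4.75, Gpr141b -2.88, Rab7b -2.65, Ifi205 -2.48, Irf8 -2.46, Cd8a -2.26, Cd36 -1.95, Clec9a -1.64, Cadm1 -1.37, Ccr9 -1.24, Xcr1 -1.19, Il12rb2 -1.18 and Cxcr3 -1.07. The smaller positive ones were Cd22 0.81, H2-DMb2 0.84, Ifi209 0.85, Cd79b 0.90, Ube2l6 0.96, Ifi207 1.04, Cd300e 1.23, Ccl3 1.34, Mt1 1.35, Apol10b 1.61, Fcer1g 1.73, Runx2 1.73, Klrd1 1.75, Ms4a1 1.80 and Irf4 1.82. Larger positive ones were Clec7a 1.86, Adgre1 1.87, Ms4a6b 1.91, Tlr1 1.91, Lrp1 1.93, Gpr183 2.12, Ccl9 2.37, Zeb2 2.50, Ddx58 2.65, Tgm2 2.66, Itgam 2.76, Cd4 2.81, Cd300lf 2.82 and Sirpa 2.86. The largest among the named genes were Ms4a4c 3.0, Ifit1 3.02, Wfdc17 3.03, S100a4 3.46, Ddx60 3.48, Oasl2 3.56, Ifit1bl1 3.57, Csf3r 3.68, Oas1a 3.69, Rtp4 3.77, Ifit3 3.79, Sirpb1a 3.85, Cd209a 4.18, Cybb 4.36, Pram1 4.36 and Ifit3b 5.91.

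In H/+ minus WT the log2 differences of the named genes were Rab37 -1.87, Gpr141b -1.45, Irf8 -1.29, Fcer1g 0.82, Ms4a6b 1.13, Runx2 1.15, Ms4a1 1.5, Ms4a4c 1.61, Cd300lf 1.68, Cd4 1.70, Wfdc17 1.99, Ifit1 2.21, Ccl9 2.32, Ddx60 2.34, Cybb 2.53, Ifit1bl1 3.11 and Cd209a 3.23. In H/H minus H/+ they were Cd8a -1.45, Gpr141b -1.44, Irf8 -1.17, Fcer1g 0.90, Gpr183 1.22, Ms4a4c 1.39, Tgm2 1.52, Cybb 1.82 and Pram1 4.69. When 1 library was left out, the H/H minus WT call of Gpr33 ended without 6 of the 8 libraries (edgeR adjusted p of up to 0.306). That of Ace ended without H/H cDC1 replicate 1 (log2 -3.76, edgeR adjusted p = 0.149), WT cDC1 replicate 1 (0.0626) or WT cDC2 replicate 2 (0.054). Ifit3 lost its call without either H/H cDC2 library or WT cDC1 replicate 1 (edgeR adjusted p of up to 0.0625), and Rtp4 without either WT cDC1 library (up to 0.0715).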

How the results depend on the processing

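Alternatives left the lineage counts within 1.5 times of 6140 in H/+ and 5892 in H/H. Over 305 values of 153 named genes none changed its sign with a call on either side; leaving out 1 library kept 1546 of 1684 calls or non-calls, ended 134 and added 4. The interaction counts moved. For H/+ minus WT (28) they were 114 with DESeq2, 190 without a filter on low counts, 18 without hybrid libraries, 8 with only the groups compared, and 13 to 41 when 1 library was left out. For H/H minus WT (305) they were 476 with DESeq2, 568 without the filter, and 189 to 234 when 1 library was left out. For H/H minus H/+ (10) they were 53 with DESeq2, 107 without the filter, 1 without hybrid libraries, 0 with only the groups compared (edgeR; 546 at an unadjusted p under 0.05), and 2 to 19 when 1 library was left out. With DESeq2's size factors the median of all genes moved by at most 0.0103 in size and no named call changed.

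The labels do not say that replicate numbers pair the samples, and each contrast holds 2 pairs; deviations of same-numbered cDC1 and cDC2 libraries correlated at 0.202 in H/+, 0.183 in H/H and 0.148 in WT. A replicate block, which here equals a term for libraries with Xist, gave 98 called genes for H/+ minus WT, 479 for H/H minus WT and 51 for H/H minus H/+. Under the block or that term 66 differences were narrowed and 15 widened in H/+, and 39 were widened in H/H. With the direction read from WT 8 were widened in H/H. A 1.5-fold interval kept 2067 in H/+ and 1823 in H/H. Leaving out 1 library gave 160 to 272 narrowed and 8 to 24 widened differences in H/H, and 11 to 32 narrowed and 1 to 7 widened in H/+. The cause of these shifts was not tested. With 2 libraries per group, interactions whose 95% interval was wider than 2-fold either way were left as unresolved.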

Other observations

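Of the 14 genes called in opposite directions between the lineages of H/H and of WT, 12 were higher in cDC1 in H/H and lower in cDC1 in WT, and 11 of the 14 had a called interaction. Several are known interferon-responsive genes. Ifit2, an RNA-binding antiviral protein, had 32.4 and 37.7 CPM in H/+ cDC1 and 29.2 and 38.8 in H/+ cDC2, 58.5 and 52.8 in H/H cDC1 and 30.7 and 38.8 in H/H cDC2, and 10.6 and 11.3 in WT cDC1 and 23.1 and 35.5 in WT cDC2. The H/H cDC1 values lay above the H/H cDC2 values, and the WT cDC1 values below the WT cDC2 values. Dhx58, which encodes the RNA sensor LGP2, had 85.5 and 93.6 CPM in H/H cDC1 and 59.1 and 66.3 in H/H cDC2, against 42.9 and 41 in WT cDC1 and 53.9 and 65.5 in WT cDC2. Zbp1, a sensor of Z-form nucleic acid, had 35.7 and 39.6 CPM in H/H cDC1 and 24.8 and 27.4 in H/H cDC2, against 14.5 and 15.4 in WT cDC1 and 21.8 and 25.7 in WT cDC2. In H/+ cells the values of the lineages overlapped for Ifit2, Dhx58 and Zbp1. Ccl6, a chemokine, had 98.4 and 114 CPM in H/H cDC1 and 50.7 and 74.5 in H/H cDC2, against 34 and 43.1 in WT cDC1 and 60.1 and 64.2 in WT cDC2. Lrrc28 ran the other way, with 9.18 and 10.1 CPM in H/H cDC1 and 15.9 and 14.4 in H/H cDC2, against 21.7 and 27.4 in WT cDC1 and 14.1 and 13 in WT cDC2. So did Gbp2b, an interferon-inducible GTPase, at low levels. Gbp2b had 0.943 and 1.39 CPM in H/H cDC1 and 3.03 and 4.45 in H/H cDC2. In WT it had 0.9435 and 1.28 CPM in cDC1 and 0.1935 and 0.5095 in cDC2. The interferon-responsive genes among the opposite calls thus did not all turn in the same direction. These genes were chosen after their values were seen.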
